A study of Mus musculus with 8 samples.

Results

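Glutamate and gamma-aminobutyric acid (GABA) receptor subunit genes were followed in the caput, the head of the epididymis, where sperm begin to mature. They were taken from the deposited gene table by symbol, as the AMPA (Gria), kainate (Grik), delta (Grid), NMDA (Grin) and metabotropic (Grm) glutamate receptor genes and the GABA-A and rho-type (Gabr) receptor genes. The symbols matched 47 of 24059 entries. Of these, 45 were receptor genes, 26 for glutamate and 19 for GABA. The remaining matches were Grid2ip, which encodes a protein that binds a delta receptor, and Grin1os, an antisense transcript, and both had 0 reads in all libraries. The family was put forward because of the genotype difference of Gria2 and Gabra4, so that the genotype values of these genes are a description without a test. The other members entered by symbol alone.

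RNA of the whole caput was sequenced in 4 Nell2-KO samples (labelled Nell2-/-) and 4 wild-type (WT) samples, all from C57BL/6N mice aged 14 weeks. The comparison asks how loss of NELL2, a secreted protein of testicular germ cells that reaches the duct with the luminal fluid, changes caput transcripts. The allele and the origin of the line, not given in the sources used here, limit what the line stands for. Replicates carry a number and no animal, so the p-values reflect sample-to-sample spread, which may be technical. The tissue was taken whole, so fewer cells of a type and less RNA per cell cannot be told apart.

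AMPA, kainate and NMDA receptors are cation channels opened by glutamate and are built from subunits encoded by separate genes. Metabotropic glutamate receptors signal through G proteins. GABA-A receptors are chloride channels that usually join alpha and beta subunits with a further subunit, while rho subunits form GABA-gated channels of their own, best known in the retina. These receptors are studied mainly in neurons, and several have also been described in epithelial and endocrine tissues.

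Library totals ran from 801112 to 6256204 counts in Nell2-KO and from 2073811 to 2517387 counts in WT. Nell2-KO replicate 1 had the lowest total and stood apart, with 0.496 of the mean WT share of reads falling in gene counts, against 1.02 to 1.03 in the other 3 Nell2-KO libraries. Nell2 itself had 0 reads in all 8 libraries, which allows up to 0.211 CPM over the pooled Nell2-KO and 0.339 CPM over the pooled WT libraries, so it did not check the genotype labels. Of 18 genes listed as markers of the initial segment, with which the caput begins, 17 were tested, 2 rose and 15 fell. Their summed level was 1081 to 1623 CPM in Nell2-KO libraries and 36752 to 44518 CPM in WT libraries. That list was drawn up with earlier results of these data known and is no independent evidence of its direction. Levels are read counts scaled to library size by the TMM method (CPM), given as mean ± SD with n = 4 per group. Comparisons of levels between genes use TPM, which also account for gene length, except where CPM is named.

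Few of the receptor genes were represented by more than scattered reads. Of the 45 receptor genes, 11 had 0 reads in all 8 libraries, 20 had 1 to 9 reads in all libraries together, and 14 had at least 10. Between 12 and 25 of the receptor genes had a read in a Nell2-KO library and between 14 and 20 in a WT library. At the lowest library total, the number expected from the same counts was 10.4 to 13.0 in Nell2-KO and 11.4 to 13.2 in WT. Only 6 members passed the expression filter of the test across all genes: Gria2, Gria3, Gabra3, Gabra4, Gabrb1 and Gabrr1. In that test 2 of the 6 were called higher in Nell2-KO (Gabra4 and Gabrb1) and 2 lower (Gria2 and Gabrr1), at an adjusted p under 0.05. Over all 11062 genes tested, 6.24% were called higher and 8.71% lower. Gria2 and Gabrr1 reached the filter level of 4.70 CPM in 0 Nell2-KO and 4 WT libraries, so that they passed only through the group in which they were high. Gabrb1 reached it in 4 Nell2-KO libraries and 1 WT library. Nothing is read from the count of calls.

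Upstream sequence is shown for the genes with a genotype difference, because Gabra4 and Gabrb1 lie head to head and because Gria2 and Gabrr1 had little or no RNA in Nell2-KO. The sequences come from RefSeq (build GRCm38.p6, the assembly that mm10 names), written 5′ to 3′ on the strand of the gene, and are limited to bases outside annotated exons within the 250 bases before a start. Capitals mark a match to any of 4 motifs searched on both strands. The intervals are chr3:80802836-80803085 (minus strand), chr4:33132306-33132520 (plus strand), chr5:71658364-71658558 (minus strand) and, for a downstream start of Gabrb1, chr5:71699825-71699931 (plus strand). That Gabrb1 stretch is 107 of the 169 bases outside exons in its window and does not face Gabra4. The stretch before the Gabrb1 start that faces Gabra4 is not printed.
Gria2: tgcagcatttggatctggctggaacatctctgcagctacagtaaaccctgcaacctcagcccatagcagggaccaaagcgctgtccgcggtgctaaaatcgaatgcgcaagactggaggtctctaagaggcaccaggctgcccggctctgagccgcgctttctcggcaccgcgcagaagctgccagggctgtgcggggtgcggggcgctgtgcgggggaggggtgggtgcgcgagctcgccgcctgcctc
Gabrr1: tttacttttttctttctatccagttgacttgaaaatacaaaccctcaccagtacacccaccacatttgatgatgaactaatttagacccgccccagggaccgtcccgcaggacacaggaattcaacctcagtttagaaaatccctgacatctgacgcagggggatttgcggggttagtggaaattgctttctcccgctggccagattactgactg
Gabra4: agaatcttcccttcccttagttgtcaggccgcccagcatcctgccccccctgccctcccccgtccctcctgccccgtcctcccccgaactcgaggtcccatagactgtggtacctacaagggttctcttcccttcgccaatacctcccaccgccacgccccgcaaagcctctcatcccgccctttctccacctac
Gabrb1: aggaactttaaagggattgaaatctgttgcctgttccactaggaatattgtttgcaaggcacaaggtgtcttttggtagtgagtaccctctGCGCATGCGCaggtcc

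The motifs were the ETS motif of the PEA3 type AGGAAG, the NRF1 consensus, the cAMP response element TGACGTCA and the androgen receptor hexamer AGAACA, none of which overlapped another in these windows. Among 32841 windows of 250 bases before a RefSeq start, 29.5% held the ETS motif, 3.74% the NRF1 motif, 1.55% the cAMP response element and 16.1% the androgen receptor hexamer. The windows of Gria2, Gabrr1 and Gabra4 held 0 matches. The downstream start of Gabrb1 had 1 NRF1 match, shown in capitals, and the upstream start of Gabrb1 had 1 ETS match, which lies in an exon of Gabra4 or Gabrb1 and is not printed. GC content was 64.8% in the Gria2 window, 63.6% in the Gabra4 stretch and 47.0% in the Gabrr1 stretch, against a median of 52.4% over all windows. A match is a description of letters and not a binding site, and a window without a match says only that these letters are absent from it.

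Gria2 encodes an AMPA receptor subunit that, once its transcript is edited, makes the channel nearly impermeable to calcium. It was read in all 4 WT libraries and in 0 of the 4 Nell2-KO libraries. The gene (ENSMUSG00000033981.14) spans 80681450 to 80802835 on the minus strand of chromosome 3 in mm10. Its counts were 0, 0, 0 and 0 in Nell2-KO replicates 1 to 4 and 187, 195, 129 and 193 in WT replicates 1 to 4, which is 73.2, 95.4, 62.7 and 88.0 CPM in WT. No Nell2-KO library came near the WT range, and the deepest of them, replicate 3, would have shown a level of 0.457 CPM at 3 counts. Pooled over the groups, Gria2 had 0 reads in Nell2-KO and 704 in WT, which puts it at least 377-fold lower in Nell2-KO when the pooled Nell2-KO libraries are set to 3 counts, counting error only. In WT its mean CPM, which does not account for gene length, was above that of 78.8% of the genes tested.

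The other AMPA subunit genes had low levels in both genotypes. Gria3 was tested and not called, while Gria1 and Gria4 failed the expression filter and were not tested. Gria3, which encodes a subunit of the same channel family, was at 19.7, 4.36, 7.16 and 5.75 CPM in Nell2-KO replicates 1 to 4 and at 6.66, 6.85, 5.35 and 5.02 CPM in WT replicates 1 to 4. The groups overlapped, and the highest value was that of Nell2-KO replicate 1. Gria3 had a log2 fold change of 0.30 ± 0.37 (with its SE, edgeR adjusted p = 0.668), and 0.04 when Nell2-KO replicate 1 was left out. Gria1, the subunit gene best known from plasticity of excitatory synapses, had 0, 1.46, 1.83 and 4.86 CPM in Nell2-KO and 1.96, 4.89, 2.92 and 5.02 CPM in WT, again with overlap. Gria4 had 8 reads in Nell2-KO and 5 in WT. The AMPA genes without Gria2 summed to 11.9 ± 6.54 CPM in Nell2-KO and 10.2 ± 2.01 CPM in WT. By length-scaled level, Gria2 made up 0% of the AMPA subunit TPM in each Nell2-KO library and 84.9 ± 0.53% of it in WT, with a WT range of 84.4% to 85.5%.

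**Figure D1:**
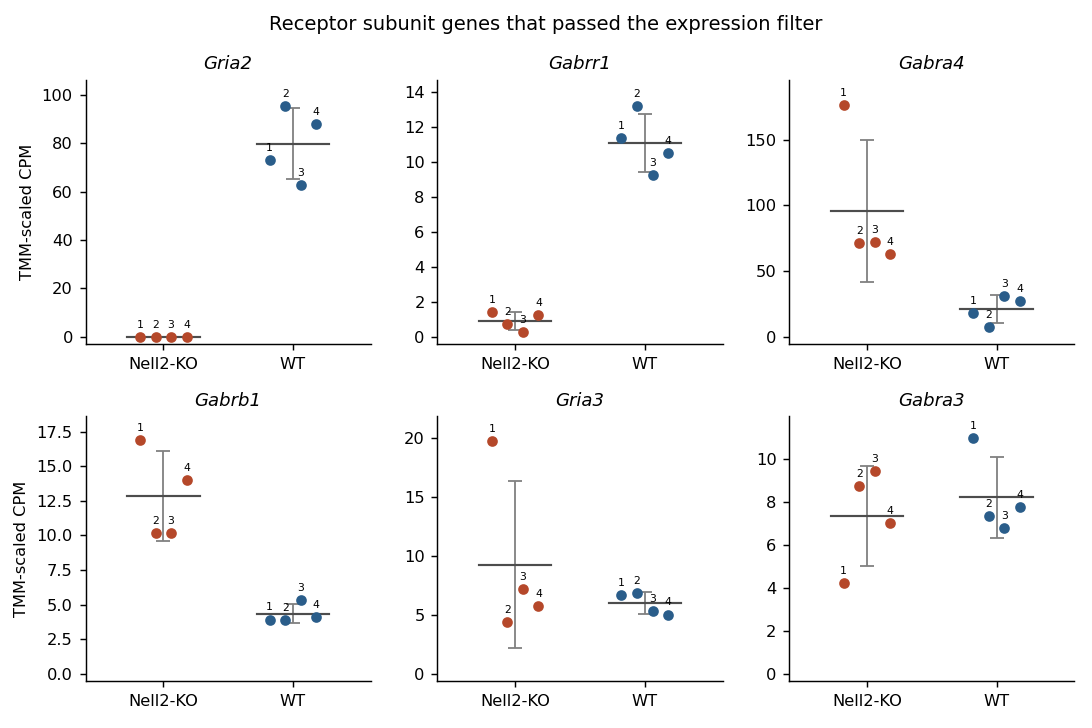
TMM-scaled CPM (vertical axis, from 0, with a scale of its own in each panel) of the 6 receptor genes that passed the expression filter, for Nell2-KO (left, red) and WT (right, blue). Points are libraries labelled with their replicate number, horizontal lines are means and bars are SD, cut at 0. Gria2 was at 0 in all Nell2-KO libraries and Gabrr1 at 0.305 to 1.41 CPM in them, while Gabra4 and Gabrb1 were higher in every Nell2-KO library than in any WT library.

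Gabrr1 encodes a rho-type GABA receptor subunit and fell in Nell2-KO. It lies on chromosome 4 at 33132521 to 33163588 of mm10 (ENSMUSG00000028280.9, plus strand). Nell2-KO replicates 1 to 4 held 1, 1, 2 and 7 reads of it, or 1.41, 0.727, 0.305 and 1.26 CPM. WT replicates 1 to 4 held 29, 27, 19 and 23 reads, or 11.4, 13.2, 9.23 and 10.5 CPM, and the groups did not overlap. The log2 fold change was -3.75 ± 0.38 (SE, edgeR adjusted p = 2.43e-05), a 13.5-fold difference in the fit. Gabrr1 passed the expression filter through WT alone, the group in which it was high. The fit without a filter gave an adjusted p of 2.27e-06 (edgeR), which rests on the same reads and is no independent support. Of all genes tested, 12.6% were lower in every Nell2-KO library than in any WT library. The pooled scaled counts had a ratio of 0.0699 (exact binomial interval at 95% from 0.0338 to 0.131, counting error only). Leaving out Nell2-KO replicate 4, which held 7 of the 11 Nell2-KO reads, gave -4.40 on the log2 scale, and leaving out replicate 3 gave -3.18.

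Gabrr2, the rho gene that lies 36.7 kb upstream of Gabrr1 on the same strand, had 0 reads in Nell2-KO and 9 in WT, of which 6 were in WT replicate 1. With the pooled Nell2-KO libraries set to 3 counts it was at least 4.82-fold lower in Nell2-KO, counting error only. It failed the expression filter. In a fit without that filter, in which 9.72% of 18185 genes were called in either direction, its edgeR adjusted p was 0.0240, and DESeq2 gave an adjusted p of 0.126. Gabrr3, the remaining rho gene, had 0 reads in all libraries.

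Gabra4 and Gabrb1 encode an alpha and a beta subunit of the GABA-A receptor and were both higher in Nell2-KO. Gabra4 (ENSMUSG00000029211.11) lies on the minus strand of chromosome 5 at 71569749 to 71658308 in mm10, and Gabrb1 (ENSMUSG00000029212.11) on the plus strand at 71658113 to 72149037. The genes are head to head, and their annotated spans share 196 bases. With the strand setting of the authors' counting not given in the sources used here, reads within the shared bases cannot be told apart between them.

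Gabra4 was at 176, 71.3, 72.0 and 62.8 CPM in Nell2-KO replicates 1 to 4 and at 18.4, 7.34, 31.1 and 27.4 CPM in WT replicates 1 to 4. All Nell2-KO values lay above all WT values, with Nell2-KO replicate 1 the highest and WT replicate 2 the lowest. In the fit it was 4.28-fold higher in Nell2-KO, a log2 fold change of 2.10 ± 0.41 (SE). Leaving out Nell2-KO replicate 1 gave 1.70, and leaving out WT replicate 2 as well gave 1.43. Nell2-KO replicate 1 also held the highest summed level of neuron markers, 215 CPM, of which Rbfox3 alone gave 127 CPM. Other neuron markers in that library were mixed. Syt1 had its highest Nell2-KO value there, 14.1 CPM, while Syp and Stmn2 had 0 reads there and reads in the other Nell2-KO libraries. The part of neurons in the Gabra4 value was not tested. In Nell2-KO the Gabra4 mean CPM, which does not account for gene length, was above that of 83.1% of the genes tested.

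Gabrb1 was at 16.9, 10.2, 10.2 and 14.0 CPM in Nell2-KO replicates 1 to 4 and at 3.92, 3.92, 5.35 and 4.11 CPM in WT replicates 1 to 4. The groups did not overlap, which was the case in this direction for 9.50% of all genes tested. Gabrb1 rose 2.83-fold (log2 fold change 1.50 ± 0.26, SE, edgeR adjusted p = 0.00168), and by 1.44 on the log2 scale without Nell2-KO replicate 1. It passed the expression filter mainly through Nell2-KO, with 1 WT library at the filter level. The fit without a filter gave it an adjusted p of 0.0014 (edgeR), which rests on the same reads and is no independent support. The Gabra4 to Gabrb1 ratio of TPM was 3.27 ± 1.10 in Nell2-KO and 2.15 ± 0.94 in WT.

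Gabra3, which encodes another alpha subunit, did not pass the test. It was at 4.22, 8.73, 9.44 and 7.01 CPM in Nell2-KO replicates 1 to 4 and at 10.97, 7.34, 6.80 and 7.75 CPM in WT replicates 1 to 4. The groups overlapped and the log2 fold change was -0.06 ± 0.26 (SE, edgeR adjusted p = 0.944).

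The summed receptor level is given beside its makeup. Reads of all 45 receptor genes summed to 142 ± 61.2 CPM in Nell2-KO, with 234 CPM in replicate 1 and 110 to 113 CPM in the other 3, and to 145 ± 12.2 CPM in WT. GABA-A subunits summed to 73.5 ± 25.0 TPM in Nell2-KO and 21.6 ± 6.19 TPM in WT. Gabra4 and Gabrb1 together made up 89.6 ± 4.94% of that sum in Nell2-KO and 71.5 ± 7.85% in WT. Among the 6 genes tested, the order by mean TPM in Nell2-KO was Gabra4 (51.3), Gabrb1 (15.5), Gabra3 (4.54), Gria3 (3.81), Gabrr1 (0.912) and Gria2 (0). Gabra4 was above Gabrb1 in each Nell2-KO library, while Gabra3 and Gria3 changed places in replicate 1. In WT the order by mean TPM was Gria2 (22.0), Gabra4 (10.8), Gabrr1 (10.5), Gabrb1 (4.94), Gabra3 (4.70) and Gria3 (2.39). Gria2 was the highest and Gria3 the lowest of the 6 in each WT library, whereas Gabra4 and Gabrr1, and likewise Gabrb1 and Gabra3, changed places between WT libraries. In WT replicate 2, Gabra4 stood at 3.89 TPM, below Gabrb1 and Gabra3. These orders describe genes chosen in part for their pattern and were not tested.

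**Figure D2:**
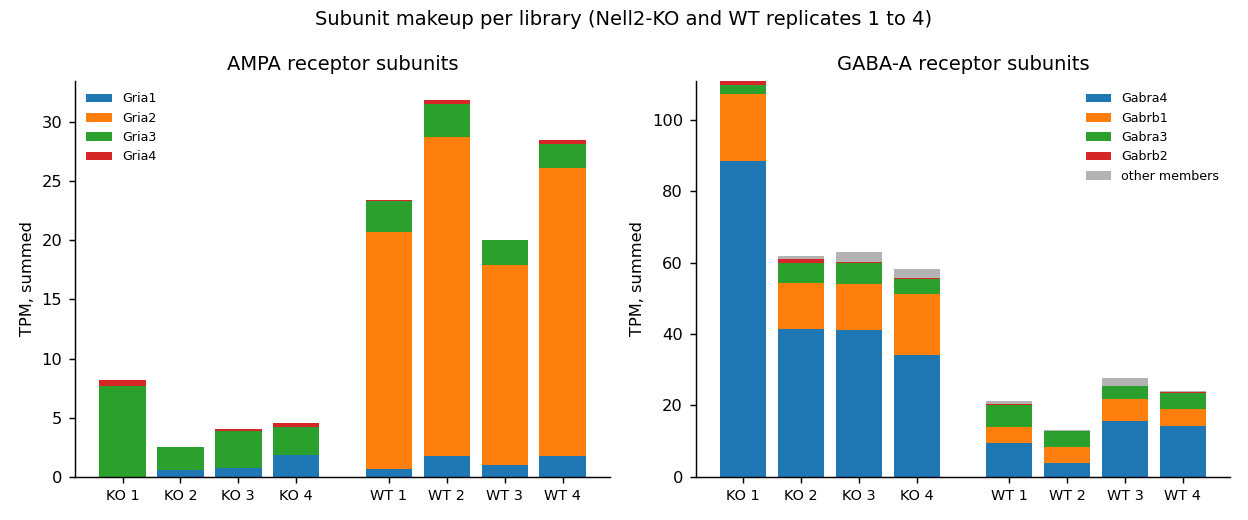
Summed TPM (vertical axis, from 0) of AMPA receptor subunit genes (left panel) and GABA-A receptor subunit genes (right panel) in each library, Nell2-KO replicates on the left of each panel and WT replicates on the right, stacked by gene. AMPA TPM were mainly Gria2 in WT and held none of it in Nell2-KO, and Gabra4 and Gabrb1 made up most of the GABA-A TPM in both genotypes, with higher stacks in Nell2-KO.

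Of the 14 genes with at least 10 reads, 8 failed the expression filter. In the fit without a filter the edgeR adjusted p was 0.108 for Grik3 and 0.312 or more for the other 7, and DESeq2 gave 0.289 or more for all 8. Grik3, a kainate receptor subunit gene, had the largest ratio among them. It was at 0, 1.46, 3.05 and 3.96 CPM in Nell2-KO and 0, 0, 1.46 and 1.37 CPM in WT, so that the groups overlapped. Its pooled scaled counts were 4.57-fold higher in Nell2-KO (95% exact binomial interval 1.94 to 13.1, counting error only), and most Nell2-KO reads were in the 2 deepest libraries, 20 in replicate 3 and 22 in replicate 4. Grik4, a kainate subunit gene of the high-affinity type, was at 1.41, 0, 1.22 and 1.26 CPM in Nell2-KO and 1.96, 4.40, 2.43 and 0.912 CPM in WT. Grik5, another high-affinity kainate subunit gene, was at 2.82, 6.55, 2.13 and 2.88 CPM in Nell2-KO and 1.17, 2.45, 1.94 and 2.28 CPM in WT. Both overlapped between groups.

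Among the low GABA-A genes, Gabrb2, which encodes a beta subunit, was at 4.22, 2.91, 0.762 and 0.899 CPM in Nell2-KO and 0.783, 0, 0 and 0.912 CPM in WT. Gabrd, which encodes the delta subunit of receptors outside synapses, was at 0, 0.727, 1.07 and 1.62 CPM in Nell2-KO and 0, 0, 1.46 and 0.456 CPM in WT. Of the NMDA receptor genes, Grin2d was at 1.41, 1.46, 0.457 and 0.539 CPM in Nell2-KO and 0.392, 0, 0 and 0.456 CPM in WT. Each of these values rests on 9 reads or fewer, and the groups overlapped for Gabrb2 and Gabrd. For Grin2d the lowest Nell2-KO value, 0.457 CPM, lay just above the highest WT value, 0.456 CPM.

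**Figure D3:**
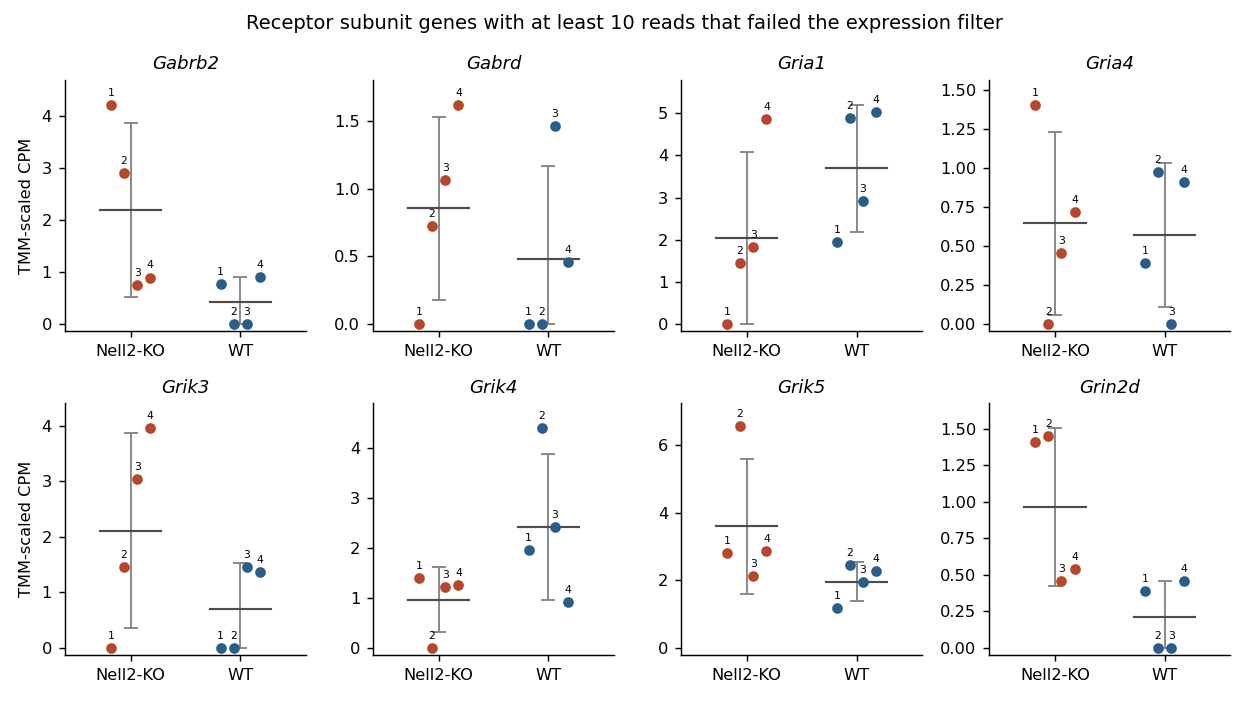
TMM-scaled CPM (vertical axis, from 0, with a scale of its own in each panel) of the 8 receptor genes that had at least 10 reads over all libraries and failed the expression filter, for Nell2-KO (left, red) and WT (right, blue). Points are libraries with their replicate number, lines are means and bars are SD, cut at 0. Single reads set the steps between points, and a library's floor of 3 counts lay between 0.457 and 4.22 CPM in Nell2-KO and between 1.17 and 1.47 CPM in WT.

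The remaining receptor genes were at the limit of detection. The NMDA receptor genes, of which Grin1 encodes the subunit that every NMDA receptor needs, summed to 18 reads in Nell2-KO and 8 in WT, and Grin1 had 0 reads in Nell2-KO and 1 in WT. The 8 metabotropic genes summed to 11 reads in Nell2-KO and 11 in WT. Among them Grm8 had 0 reads in Nell2-KO and 7 in WT, with an edgeR adjusted p of 0.0479 in the fit without a filter. Gabrp, the pi subunit gene known from the female reproductive tract, had 1 read in Nell2-KO and 0 in WT, and Gabre had 3 in Nell2-KO and 0 in WT. Gabra2, Gabra5, Gabrg1, Gabrg3, Gabrq, Grik2, Grin2b, Grin3a, Grin3b, Grm3, Grm5 and Grm7 had between 1 and 6 reads in all libraries together. Receptor genes with 0 reads throughout included Gabra6, Gabrr3, Grid1, Grik1, Grin2a, Grin2c, Grm2, Grm4 and Grm6. Such counts allow up to 0.211 CPM over the pooled Nell2-KO libraries and 0.339 CPM over the pooled WT libraries.

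The genes on either side of Gria2 and Gabra4 were read from the same fit. Of the 3 nearest protein-coding genes on each side of Gria2, 5 were tested. Glrb, the glycine receptor beta subunit gene that lies next, 40.8 kb away, rose, at 74.6, 34.9, 43.9 and 54.3 CPM in Nell2-KO and 30.2, 27.4, 31.1 and 34.7 CPM in WT (log2 fold change 0.71 ± 0.21, SE, edgeR adjusted p = 0.0403). This call ended in 8 of 14 other fits, over which the adjusted p ran from 0.00954 to 0.532 (edgeR, DESeq2 and limma). Pdgfc, Ctso, Fam198b and Tmem144 did not pass the test (edgeR adjusted p of 0.256 or more), and Rxfp1 had 0 reads. Around Gabra4, Gabrb1 rose, and Commd8, on the far side of Gabrb1, did not pass it (edgeR adjusted p = 0.593, at 59.0 ± 12.3 CPM in Nell2-KO and 50.8 ± 5.86 CPM in WT). The other neighbours failed the filter: Cox7b2 had 8 reads in Nell2-KO and 3 in WT, Corin 9 in Nell2-KO and 8 in WT, and the receptor genes Gabra2 and Gabrg1 had 3 and 4 reads in Nell2-KO and 0 each in WT.

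**Figure D4:**
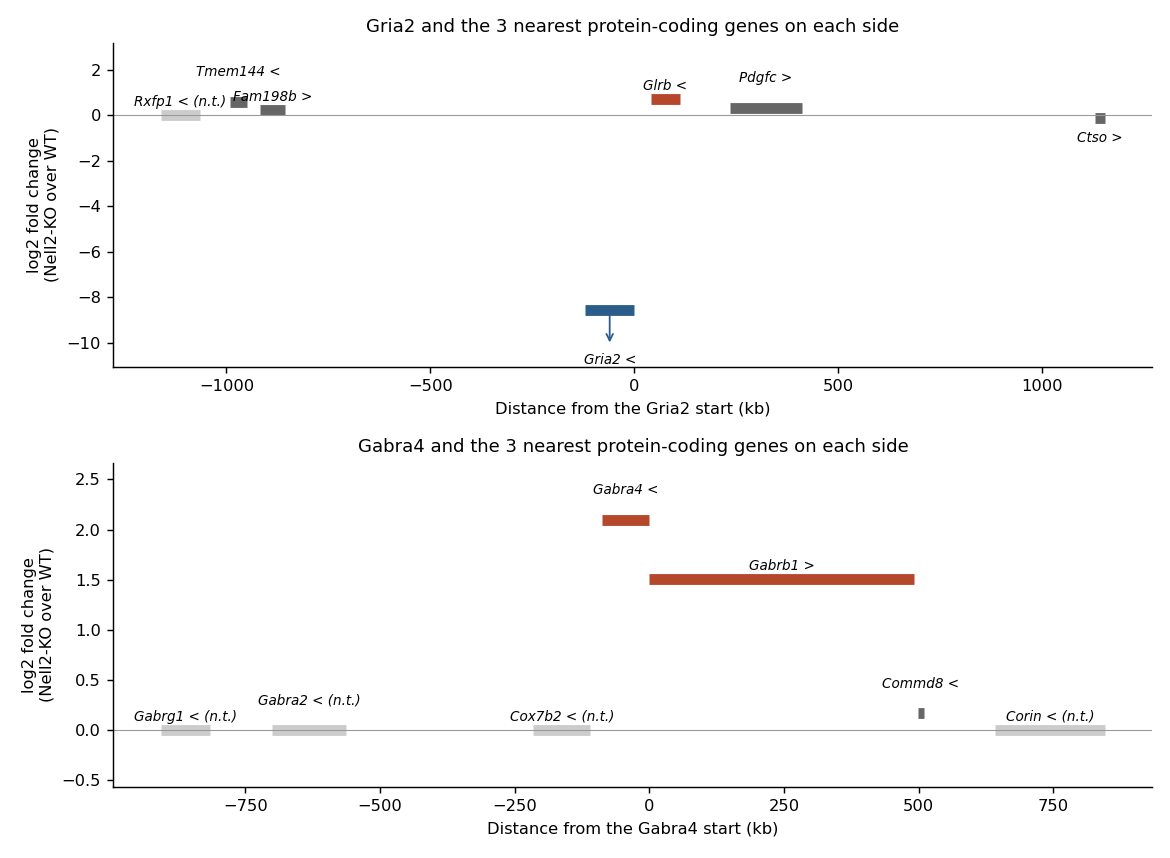
Log2 fold change, Nell2-KO over WT (vertical axis), of Gria2 (upper panel) and Gabra4 (lower panel) and the 3 nearest protein-coding genes on each side, drawn to scale along the distance from the start of Gria2 or Gabra4 in kb (horizontal axis). Signs after the names give the direction of transcription, coloured bars passed the test or are the genes of the panel title, dark grey bars did not pass it, and light grey bars at 0 were not tested (n.t.). Gria2 is drawn at its bound with an arrow, since it had 0 reads in Nell2-KO, and Gabra4 and Gabrb1 stand above the neighbours that were tested.

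Partner genes of the receptors were examined in 8 lists. Of 131 genes, 67 were tested, 5 rose and 8 fell, beside 6.24% higher and 8.71% lower over all genes tested, so that nothing particular to these lists is read from the counts. In glutamate synthesis, breakdown and transport, 1 of 14 genes tested rose, 4 fell and 9 were not called. Their median log2 fold change was -0.02, and that of all genes tested was 0.03. Slc1a1, which encodes a glutamate transporter of the plasma membrane, fell 21.1-fold. It was at 47.9, 69.1, 66.4 and 65.6 CPM in Nell2-KO replicates 1 to 4 and at 1265, 1488, 1340 and 1250.1 CPM in WT replicates 1 to 4 (edgeR adjusted p = 9.62e-09), so that the groups lay far apart. Glul, the glutamine synthetase gene that turns glutamate into glutamine, rose 2.33-fold, at 9558 ± 2866 CPM in Nell2-KO and 4106 ± 319 CPM in WT (edgeR adjusted p = 0.00162). On the RPKM values limma gave an adjusted p of 0.0751 for Glul. Slc38a1, which encodes a glutamine transporter and lies on the same chromosome as Nell2, fell 3.35-fold, at 6.77 ± 2.49 CPM in Nell2-KO and 19.95 ± 3.38 CPM in WT. Slc38a2, another glutamine transporter gene of that chromosome, fell 1.57-fold. Whether the shared chromosome had a part in these falls was not tested. Slc38a5, a more abundant gene of the same transporter family, went the other way. It was at 5630 ± 2162 CPM in Nell2-KO and 2970 ± 519 CPM in WT, with overlap (log2 fold change 0.92, edgeR adjusted p = 0.0550). It was not called in the main fit, but was called higher by DESeq2 and without Nell2-KO replicate 1.

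Among receptor scaffolds and synaptic anchors, 2 of 23 genes tested rose, 4 fell and 17 were not called (median log2 fold change -0.17). Trak2, which encodes a motor adaptor of mitochondrial transport that was also described as a GABA-A receptor partner, fell 6.03-fold, at 45.6 ± 3.52 CPM in Nell2-KO and 272 ± 31.6 CPM in WT. Dlg3, a scaffold gene of the PSD-95 family, fell 2.80-fold, at 16.6 ± 5.26 CPM in Nell2-KO and 41.6 ± 1.17 CPM in WT. Nptx2, a secreted pentraxin that gathers AMPA receptors, fell 5.05-fold, at 2.33 ± 1.50 CPM in Nell2-KO and 10.8 ± 3.05 CPM in WT. Grip1, whose product binds AMPA receptor tails, rose 2.39-fold, at 13.8 ± 3.16 CPM in Nell2-KO and 5.69 ± 0.527 CPM in WT, a call that limma on RPKM did not make (adjusted p = 0.345). Both edgeR and DESeq2 called 0 of 6 auxiliary subunit genes of glutamate channels (median log2 fold change 0.38, 1 at an unadjusted edgeR p under 0.05) and 0 of 10 genes of NMDA co-agonist metabolism (0.35, 3 at an unadjusted p under 0.05). They also called 0 of 2 RNA editing enzyme genes (0.19) and 0 of 4 chloride cotransporter genes (0.32), with 0 at an unadjusted edgeR p under 0.05 in either list. Among GABA-B and glycine receptor genes 1 of 4 tested rose (Glrb). In GABA synthesis, breakdown and transport 1 of 5 rose. That was Abat, the GABA transaminase gene, at 65.7 ± 10.2 CPM in Nell2-KO and 40.9 ± 7.86 CPM in WT (edgeR adjusted p = 0.0176), a call that ended in 6 of 14 other fits. Gad2, Slc6a11 and Slc32a1, which make or move GABA in nervous tissue, were among 4 of the 13 genes of this list with 0 reads. Slc6a13, also in this list, failed the expression filter, at 0.543 ± 0.696 CPM in Nell2-KO and 4.29 ± 0.936 CPM in WT, without overlap. The edgeR fit without a filter and DESeq2 called it lower. A further gene of GABA synthesis in the list had reads in all 8 libraries but failed the expression filter.

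The number of partner genes called depended on single libraries, as did that of all genes. Without Nell2-KO replicate 1, 15 were higher and 13 lower, and without Nell2-KO replicate 3, 3 were higher. With limma on RPKM, 0 were higher and 5 lower, namely Slc1a1, Trak2, Dlg3, Nptx2 and Slc38a1. Over all genes, 690 were higher and 964 lower with all libraries, 1249 higher and 1541 lower without Nell2-KO replicate 1, and 49 higher and 410 lower with limma on RPKM.

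**Figure D5:**
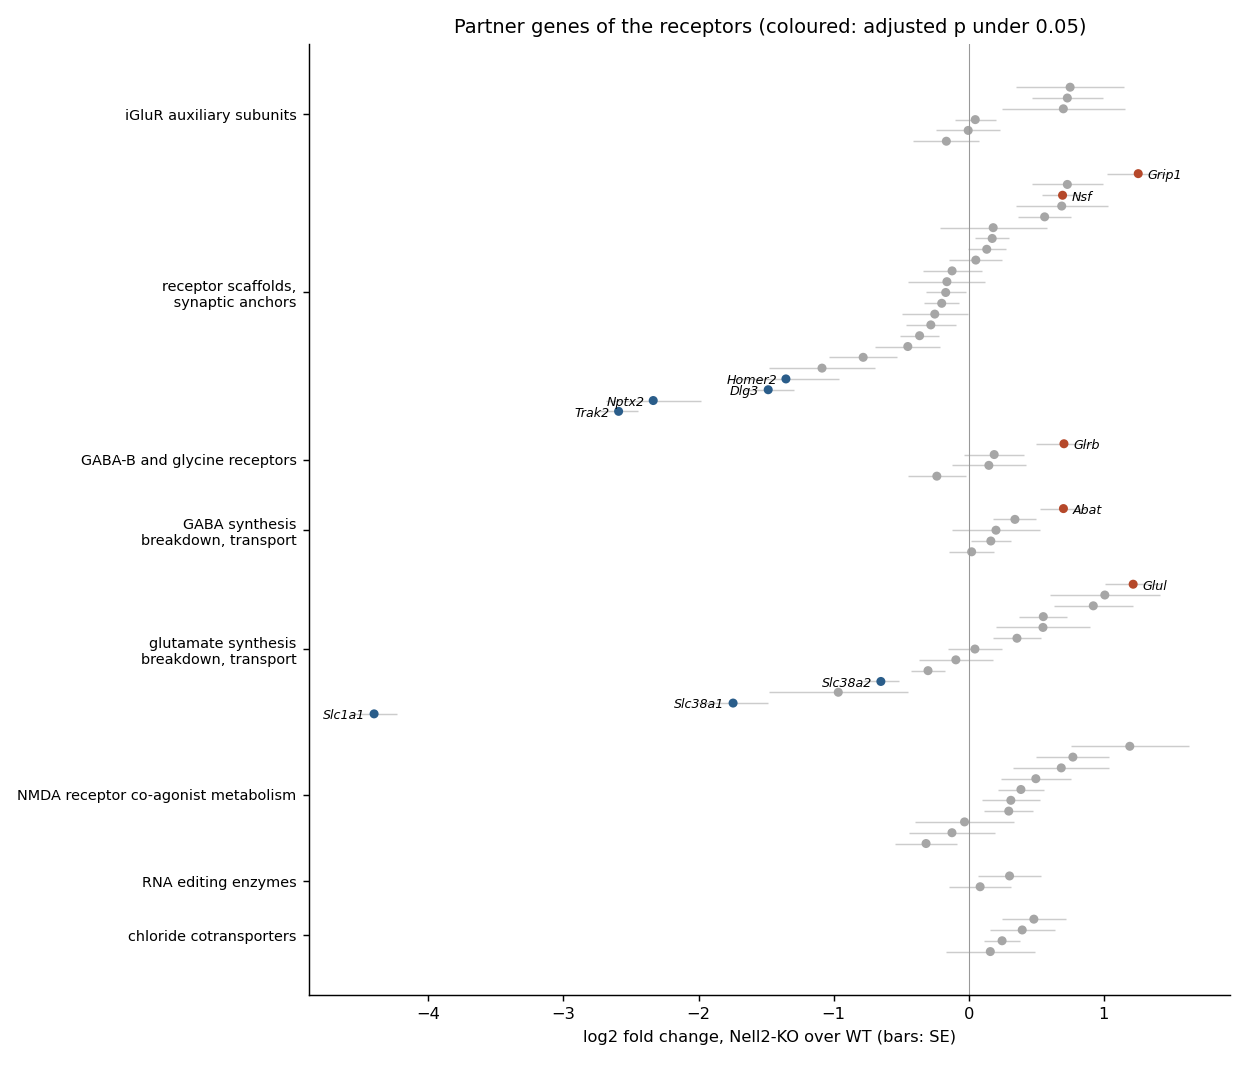
Log2 fold change, Nell2-KO over WT (horizontal axis), of the partner genes reported, grouped by list (vertical axis) and ordered within a list, with bars for the SE. Points in red (higher) and blue (lower) passed an adjusted p under 0.05 in the edgeR test and are named, and grey points did not. Slc1a1 lies farthest to the left, at a log2 fold change of -4.40.

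Markers of other cell types of the caput were read from the same fit, in which 6.24% of all genes tested were called higher and 8.71% lower. Of 30 neuron markers, 8 had 0 reads in all libraries, among them Th, Chat, Slc18a3 and Phox2a, which define autonomic neurons. Of the 6 tested, 2 rose (Syt1 and Ddc) and 1 fell (Vip, at 0.722 ± 0.576 CPM in Nell2-KO and 19.8 ± 6.62 CPM in WT). Their summed level was 86.5 to 215 CPM in Nell2-KO libraries and 79.5 to 117 CPM in WT libraries, and the top of the Nell2-KO range was replicate 1, in which Rbfox3 stood at 127 CPM. Of 13 Schwann cell and glia markers, 5 were tested and 1 rose (S100b), with sums of 161 to 227 CPM in Nell2-KO and 126 to 144 CPM in WT. Of 19 germ cell and sperm markers, 7 were tested and 0 were called by edgeR or DESeq2 (0 at an unadjusted edgeR p under 0.05), with sums of 114 to 263 CPM in Nell2-KO and 115 to 197 CPM in WT. Of 10 smooth muscle markers, 9 were tested and 1 fell, with sums of 899 to 1184 CPM in Nell2-KO and 1886 to 2109 CPM in WT. The gene that fell was Actg2, at 24.4 ± 5.63 CPM in Nell2-KO and 1019 ± 133 CPM in WT, while Acta2 was at 307 ± 31.9 CPM in Nell2-KO and 292 ± 33.7 CPM in WT. The part of these cell types in the receptor values was not tested.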

How the data were processed

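Whole caput RNA was amplified in a single linear round and read as single 36-base reads, per the labels' protocols. Per the file headers, the authors deposited raw counts and RPKM for each gene symbol in each library. Bowtie2 2.2.0, CASAVA 1.8.2, FastQC 0.11.2 and mm10 appear in the submitters' processing notes. The counting tool, its annotation, strand setting and treatment of multi-mapped reads, all not given in the sources used here, could change levels of overlapping genes.

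Columns were matched to samples by genotype and replicate number. The test on counts was that of edgeR 4.0.16, run in R 4.3.3 (TMM scaling, default expression filter, robust quasi-likelihood F test of genotype, no covariates), with Benjamini-Hochberg adjustment over the 11062 genes that passed. The same step was tested on simulated data with known changes. The SE of a log2 fold change was derived from the F statistic. The authors' RPKM were rescaled to an equal sum per library to give TPM. A group at 0 reads was set to 3 pooled counts for bounds, and pooled ratios have 95% exact binomial intervals. Both cover counting error only. Single-library floors ran from 0.457 to 4.22 CPM.

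Members and gene lists were chosen with earlier results of these data known. Members with at least 10 reads are given by library and the others by pooled counts. Some genes are not reported here. Up to 4 called genes per list by adjusted p are named, and up to 3 abundant ones for other cell types. Slc38a2, Slc38a5, Slc6a13, Syp, Stmn2, Phox2a and the other markers named at 0 reads were chosen after their values were seen. All 47 symbols matched GENCODE M21 (mm10), and promoter windows were those of RefSeq. Alternatives were RLE scaling, no filter, DESeq2 1.42.0, limma 3.58.1 on log2(RPKM + 0.1), a replicate block and left-out libraries.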

Additional observations from a re-analysis of the deposited data

Results flagged for a closer look

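In 98 sets of 4 values from 49 genes, 14 held a library that lay far from the other 3, and 8 of the 14 were Nell2-KO replicate 1. The rule flags about 1 in 20 sets of normally distributed values, a rate that does not carry over to low counts. A value above 0 in 1 library beside 0 in the other 3 is always flagged, as for Cst12 and Krt23. Among receptor genes, Gabra4 was at 176 CPM in Nell2-KO replicate 1 against 62.8 to 72.0 CPM in the other 3, and Gabrb1 at 5.35 CPM in WT replicate 3 against 3.91 to 4.10 CPM. Grik4 was at 0 CPM in Nell2-KO replicate 2 against 1.22 to 1.41 CPM, and Grik5 at 6.55 CPM in the same library against 2.13 to 2.88 CPM. Of the partner genes, Slc1a1 was at 47.9 CPM in Nell2-KO replicate 1 against 65.6 to 69.1 CPM.

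Among markers, Rbfox3 was at 127 CPM in Nell2-KO replicate 1 against 18.2 to 21.8 CPM in the other 3. Odf1 was at 37.6 CPM in Nell2-KO replicate 4 against 13.7 to 16.7 CPM, and Odf2 at 34.0 CPM in WT replicate 3 against 39.9 to 41.0 CPM. Of the initial segment markers in Nell2-KO replicate 1, Etv5 was at 8.45 CPM against 2.70 to 2.91 CPM, Rnase10 at 16.9 against 1.45 to 3.06 CPM, Lcn8 at 18.3 against 1.22 to 1.45 CPM, Lcn9 at 15.5 against 0 to 0.18 CPM and Cst12 at 1.41 against 0 CPM. Krt23 was at 0.152 CPM in Nell2-KO replicate 3 against 0 CPM.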

How the results depend on the processing

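Gabrb1 passed the threshold in all 14 other fits, with an adjusted p of up to 0.0497 (limma on RPKM), and so did Gabrr1. Gabrb1 entered the filtered fits mainly through Nell2-KO and Gabrr1 through WT alone, the groups in which they were high. Repeated calls in those fits are therefore no independent support. Nothing is read from the fits of Gria2 and Gabra4, which were chosen for their difference. Without an expression filter, 4 of 34 receptor genes in the fit were lower, as Gabrr2 and Grm8 joined, beside 1096 of all 18185 genes in that fit. Gabrr2 and Grm8 rest on 9 and 7 WT reads, and nothing is read from this count. The direction of Gabra3 turned without Nell2-KO replicate 1 (0.0042), Nell2-KO replicate 4 (0.0247) or WT replicate 1 (0.1254), in a range of -0.2311 to 0.1254 with single libraries left out and -0.355 on RPKM, and that of Commd8 turned without Nell2-KO replicate 1 and WT replicate 2 (-0.0132) and on RPKM (-0.0222), with neither gene called. Partner genes called higher numbered 5, but 3 with the replicate block, 0 by limma on RPKM and 15 without Nell2-KO replicate 1 and WT replicate 2, where 14 were lower. They numbered 3 to 15 higher and 7 to 13 lower when single libraries were left out, and 5 were lower by limma. Genes called higher next to Gria2 and Gabra4 numbered 2, but 1 with the replicate block or by limma on RPKM and 1 to 2 with single libraries left out. The cause was not tested. Deviations of same-numbered libraries had correlations of -0.28, -0.17, 0.17 and 0.17, against -0.40 to 0.42 for libraries with different numbers. With deviations taken within groups of 4, this check cannot show whether the numbers stand for pairs. With the replicate block, 2 of 6 receptor genes tested were higher and 2 lower, beside 436 higher and 748 lower of all 11062 genes tested. For receptor genes under the expression filter, 1 read was a large part of a value in the shallow Nell2-KO libraries, so that small differences were not detectable at this depth.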
